A study of Oryza sativa with 12 samples.

Results

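The genes described here were highly expressed in rice seedlings and stayed near their normal level upon heat stress (HS), on the scale of the deposited values, in both cultivars of the study. A gene belonged to the set if its LOC_Os identifier was listed for both cultivars, if its mean FPKM was at least 50 in all 4 groups, and if its HS mean over its normal mean lay between 0.8 and 1.25 in both cultivars. FPKM counts the fragments of a gene relative to its length and to the mapped reads of the library. Of 23399 LOC_Os identifiers listed in both cultivars, 741 reached the minimum in all 4 groups, and 45 of these met the whole rule. The members were thus chosen by the measured HS and normal FPKM values themselves, and the ratios of HS to normal below are a description with no test.

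RNA-seq was performed on shoots of seedlings aged 3 weeks from 93-11, an Indica cultivar, and from Nipponbare (Nip), a Japonica cultivar. The 4 groups were 93-11 HS, 93-11 normal, Nip HS and Nip normal, with 3 biological replicates each and 12 libraries in all. All seedlings were grown in culture solution with 10 h of light per day at 800 μmol m-2 s-1, and the HS groups were then kept at 45 °C for 36 h with a relative humidity above 80% and with light of only 60 to 80 μmol m-2 s-1. No normal seedlings at that light and humidity are described, so that heat, humidity and dim light cannot be told apart in HS against normal. In these bulk samples, fewer cells of a type and less RNA per cell cannot be told apart either.

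As background, strong heat makes proteins unfold, and plant cells answer with heat shock factors that switch on chaperone genes, while many genes of photosynthesis and growth are turned down. Against this turnover, some genes of basic upkeep, such as those for trafficking between compartments or for the cytoskeleton, can hold a steady transcript level. Genes of this kind are sought as reference genes for transcript measurements. A steady transcript level can hide changes in synthesis and decay that offset each other, and says nothing about the protein. The files and the gene table used here do not pair the identifiers with names or functions, so that the genes are given by identifier, with no role, and the labelled tissue was not checked against leaf or root markers.

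Replicates were alike, with a Pearson's r of 0.992 to 0.995 on log2(FPKM + 1) across the shared identifiers, which are not independent replicates, and no replicate pair within a group held an identical value for any identifier above 0 in both. The groups differed in their totals. FPKM summed over all listed genes was 794246 to 810922 in 93-11 HS libraries, against 582896 to 617044 in 93-11 normal libraries. In Nip the sum was 552167 to 561203 in HS libraries, against 785851 to 798491 in normal libraries. The number of shared identifiers with a group mean of at least 50 moved the same way, with 2247 in 93-11 HS against 1971 in 93-11 normal, and 1800 in Nip HS against 2495 in Nip normal. The files hold no counts of reads, so the depth behind a value is unknown and its precision rests on the 3 replicates; steps among the low values put replicates 2 and 3 at 0.818 to 1.17 times the depth of replicate 1 of the same group.

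Among the 741 genes over the minimum, a ratio inside the window was the less common case. In 93-11, 140 genes lay inside it, 372 above and 229 below. In Nip, 218 lay inside it, 162 above and 361 below. A further 173 genes stayed inside the window in Nip alone and 95 in 93-11 alone, and 428 were outside it in both. The median HS ratio of the 741 genes was 1.26 in 93-11 and 0.819 in Nip, so that a ratio of 1 lay below the middle of this group of genes in 93-11 and above it in Nip.

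**Figure D1:**
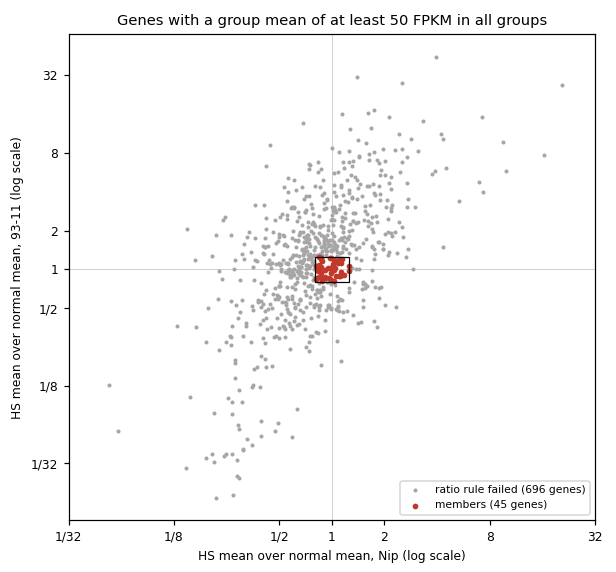
Ratio of the HS mean to the normal mean in Nip (horizontal axis, log scale) and in 93-11 (vertical axis, log scale) for the 741 genes with at least 50 FPKM in all 4 groups; each point is a gene and the box is the window from 0.8 to 1.25. The 45 members fill the box, and the other 696 genes spread on all sides of it, with ratios from 0.0168 to 44.8 in 93-11 and from 0.0532 to 20.6 in Nip.

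The members were not the most abundant transcripts. Their mean over the 4 groups ran from 60.6 to 344 FPKM with a median of 107, whereas the 696 genes over the minimum that failed the ratio rule ran from 58.6 to 8446 FPKM with a median of 158. Members made up 19 of the 169 genes with a mean of 50 to 100 FPKM (11.2%), 20 of the 298 with 100 to 200 FPKM (6.71%) and 6 of the 151 with 200 to 400 FPKM (3.97%). None of the 123 genes with a mean of 400 FPKM or more was a member. These shares are given as a description of these libraries. The rule used the same group means, and a gene that changed upon HS with its lowest group at 50 FPKM or more has a raised mean. The medians and shares are thus in part set by the rule.

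The gene of highest mean expression was LOC_Os02g55430, with 423, 418 and 420.2 FPKM in 93-11 HS libraries against 345, 355 and 350.1 FPKM in 93-11 normal libraries. In Nip it had 321, 322 and 326 FPKM in HS libraries, against 281, 275 and 289.8 FPKM in normal libraries. Every HS library was above every normal library of its cultivar, by a ratio of 1.20 in 93-11 and 1.15 in Nip, so that the gene met the rule while its groups stood apart. LOC_Os02g10700 had 320.1, 347 and 332 FPKM in 93-11 HS libraries against 317, 322 and 321 FPKM in 93-11 normal libraries, which overlap. In Nip its HS libraries, with 287, 286 and 297 FPKM, lay below the normal libraries, with 339, 338 and 377 FPKM. The ratios of LOC_Os02g10700 were 1.04 in 93-11 and 0.825 in Nip.

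LOC_Os04g56160 was the member of highest level in any group, which was Nip normal. It had 365, 356 and 353 FPKM in Nip HS libraries, against 419, 426 and 432 FPKM in Nip normal libraries. In 93-11 it had 196, 207 and 215 FPKM in HS libraries, against 236, 235 and 237 FPKM in normal libraries. Both cultivars thus showed lower values upon HS, with ratios of 0.872 in 93-11 and 0.841 in Nip, and the distance between the cultivars was larger than the distance between treatments. LOC_Os03g60840 had a like layout, with means of 185 ± 12.3 and 215 ± 6.76 FPKM in 93-11 HS and 93-11 normal libraries, against 336 ± 3.76 and 347 ± 11.4 FPKM in Nip HS and Nip normal libraries (SD, n = 3 each). LOC_Os12g07140 differed little between the cultivars, with 250.3 ± 10.8 and 293 ± 9.58 FPKM in 93-11 HS and 93-11 normal libraries and 263 ± 2.27 and 289 ± 3.62 FPKM in Nip HS and Nip normal libraries (SD, n = 3 each). All HS libraries of LOC_Os12g07140 were below all normal libraries of the same cultivar.

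Below these came LOC_Os06g04070, with a mean over the 4 groups of 216 FPKM, LOC_Os03g54890 with 172 FPKM and LOC_Os03g09250 with 151 FPKM. LOC_Os03g54890 had 191, 199.97 and 195 FPKM in 93-11 HS libraries against 162, 164 and 169.6 FPKM in 93-11 normal libraries. In Nip its 166, 167 and 161 FPKM upon HS overlapped the 155, 161 and 167 FPKM of the normal libraries. LOC_Os03g09250 was the reverse case, with 129.7, 137 and 131 FPKM in 93-11 HS libraries within reach of the 133, 132 and 137 FPKM of the normal ones, and with Nip HS libraries of 159, 163 and 162 FPKM below the 172, 179 and 178 FPKM of the Nip normal ones. The remaining 37 members had means of 60.6 to 150.4 FPKM over the 4 groups.

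**Figure D2:**
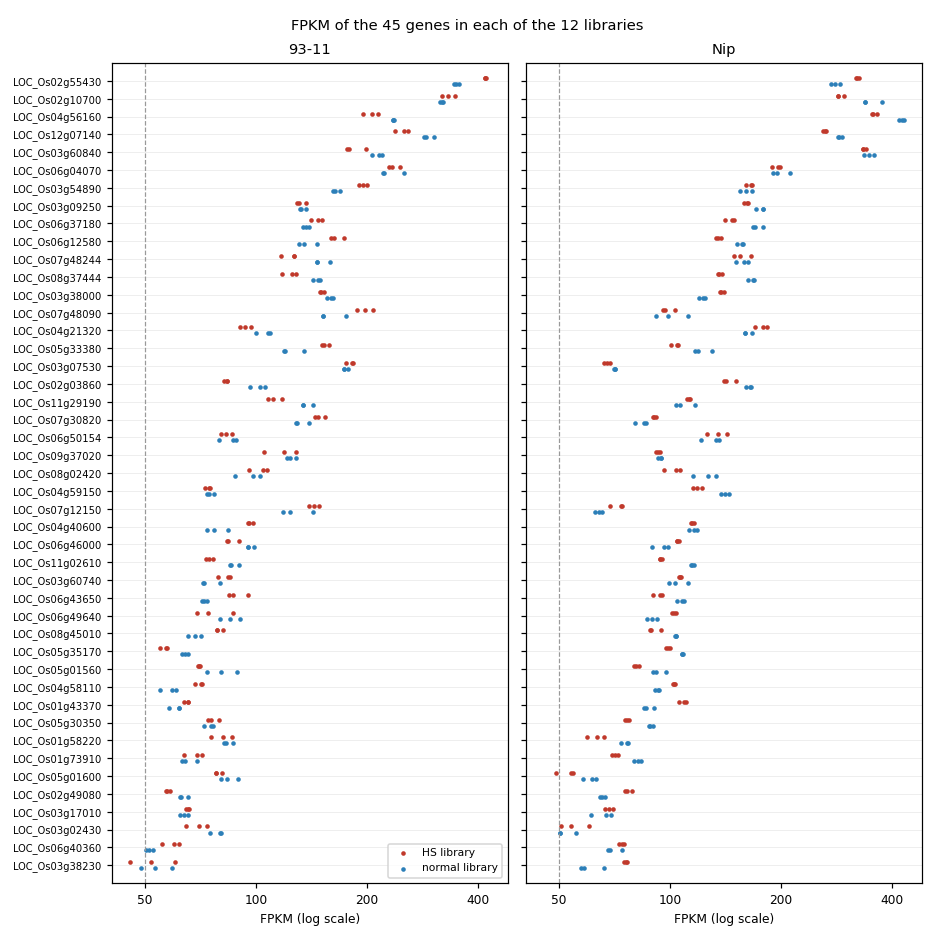
FPKM (log scale) of each of the 45 members in the 6 libraries of 93-11 (left) and the 6 of Nip (right), ordered by mean over the 4 groups; each point is a library and the dashed line marks 50 FPKM. HS and normal points of a cultivar lie close together or side by side for every member, from LOC_Os02g55430 at the top (mean 344 FPKM) to LOC_Os03g38230 at the bottom (mean 60.6 FPKM).

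The members with both ratios nearest to 1 were LOC_Os06g04070, LOC_Os06g50154, LOC_Os03g17010, LOC_Os03g07530, LOC_Os09g37020 and LOC_Os03g09250. LOC_Os06g04070 had 230.4, 246 and 234 FPKM in 93-11 HS libraries against 222, 223 and 252 FPKM in 93-11 normal libraries, and 199, 196 and 189.7 FPKM in Nip HS libraries against 195, 191 and 211 FPKM in Nip normal libraries. Its ratios were 1.02 in 93-11 and 0.979 in Nip. LOC_Os06g50154 had ratios of 0.981 in 93-11 and 1.03 in Nip, around levels of 83.1 ± 2.77 and 84.7 ± 4.80 FPKM in 93-11 HS and 93-11 normal libraries and 134 ± 8.11 and 130.0 ± 7.70 FPKM in Nip HS and Nip normal libraries (SD, n = 3 each). For both genes the HS libraries overlapped the normal libraries in each cultivar.

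LOC_Os03g17010 was the most even member over all 12 libraries. It had 65.8, 65.3 and 64.7 FPKM in 93-11 HS libraries, against 65.3, 62.3 and 63.8 FPKM in 93-11 normal libraries. In Nip it had 70.2, 68.3 and 66.5 FPKM in HS libraries, against 69.0, 67.1 and 61.0 FPKM in normal libraries. Its highest group mean was 1.07 times its lowest, the smallest such range among the 45 members, whose median was 1.44 and whose largest was 2.68. A range under 1.25 over all 4 groups, treatments and cultivars together, was found for 9 members, among them LOC_Os12g07140 (1.17) and LOC_Os05g30350 (1.19).

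LOC_Os09g37020 had steady means but uneven 93-11 HS libraries, with 105, 119 and 128 FPKM against 124, 129 and 121 FPKM in 93-11 normal libraries. In Nip it had 92.8, 91.9 and 94.2 FPKM in HS libraries, against 94.3, 94.6 and 92.9 FPKM in normal libraries, so that all 6 values fell within a few percent of each other. LOC_Os03g60740, with ratios of 1.11 in 93-11 and 1.01 in Nip, was the fifth member whose HS and normal libraries overlapped in both cultivars, beside LOC_Os06g04070, LOC_Os06g50154, LOC_Os03g17010 and LOC_Os09g37020. Over all identifiers tested, 4.02% overlapped in both cultivars, but the members were chosen for small differences in these contrasts.

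In 93-11 the values upon HS and under normal conditions were fully separated for 28 of the 45 members, beside 85.7% of the 19296 identifiers tested, and in Nip for 32 of the 45, beside 80.3%. The rule used these contrasts, so nothing is read from the members' counts here. In 20 members the groups stood apart in both cultivars, beside 70% of the identifiers tested. Of all 45 members, 9 stood apart in both cultivars in opposite directions, beside 18.6% of all identifiers tested. Of these 9, 5 were higher upon HS in 93-11 and lower in Nip, and 4 the other way round. LOC_Os05g33380 was of the first kind, with 158, 154 and 151 FPKM in 93-11 HS libraries against 119.7, 119 and 135 FPKM in 93-11 normal libraries, while its Nip HS libraries, at 105, 104 and 101 FPKM, lay below the Nip normal libraries at 117, 119 and 130.2 FPKM. LOC_Os03g38000 was of the second kind, with 149, 153 and 151 FPKM in 93-11 HS libraries against 156, 159.7 and 162 FPKM in 93-11 normal libraries, and 137, 136 and 139.7 FPKM in Nip HS libraries against 123, 125 and 120.0 FPKM in Nip normal libraries. LOC_Os06g43650 resembled LOC_Os05g33380, with 95.1, 86.6 and 84.4 FPKM in 93-11 HS libraries against 71.3, 72.3 and 73.4 FPKM in 93-11 normal libraries, and 95.4, 89.7 and 93.9 FPKM in Nip HS libraries against 104, 108 and 109 FPKM in Nip normal libraries. The others were LOC_Os06g37180, LOC_Os06g12580, LOC_Os04g21320, LOC_Os06g46000, LOC_Os08g45010 and LOC_Os02g49080. Over all members regardless of overlap, the ratio was above 1 in both cultivars for 9, below 1 in both for 14, above 1 in 93-11 alone for 13 and above 1 in Nip alone for 9.

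The members just inside the edges of the window were LOC_Os02g03860 (0.814) and LOC_Os11g29190 (0.818) at the low end and LOC_Os07g48090 (1.233) and LOC_Os05g33380 (1.237) at the high end in 93-11. In Nip they were LOC_Os08g02420 (0.816) and LOC_Os08g37444 (0.817) at the low end and LOC_Os01g43370 (1.247) and LOC_Os03g38230 (1.249) at the high end. The nearest genes outside, which met the rest of the rule, were LOC_Os02g45000 (0.795) and LOC_Os11g11390 (1.254) in 93-11 and LOC_Os07g09150 (0.796) and LOC_Os01g09620 (1.299) in Nip. At the minimum, LOC_Os06g40360 had a lowest group mean of 51.3 FPKM and LOC_Os03g02430 of 52.1 FPKM, while LOC_Os01g42870 (48.3 FPKM) and LOC_Os07g38090 (48.2 FPKM) met the ratios but fell short. Genes on either side of an edge therefore differed by a few percent or a few FPKM, within the range of the replicates for many members. When each replicate number was left out in turn, 35 of the 45 genes met the rule every time and 10 did not.

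The spread between replicates was not used by the rule. The median coefficient of variation over the 45 members was 3.38% in 93-11 HS, 3.46% in 93-11 normal, 1.85% in Nip HS and 2.72% in Nip normal libraries. The other 696 genes over the minimum had medians of 3.31%, 3.86%, 2.72% and 2.69% in the same order of groups. The members were therefore close to the other genes in this measure, except for a lower median in Nip HS libraries, a difference that was not tested. The most even replicates were those of LOC_Os03g38000, LOC_Os03g07530 and LOC_Os05g35170, whose largest coefficient of variation in any group was 1.91%, 2.33% and 2.47%. LOC_Os05g35170 had 54.8, 57.1 and 57.4 FPKM in 93-11 HS libraries against 64.3, 65.3 and 62.9 FPKM in 93-11 normal libraries, and 97.3, 100.2 and 98.8 FPKM in Nip HS libraries against 109, 108 and 108 FPKM in Nip normal libraries, so that groups 0.880 and 0.913 times apart did not overlap. The least even were those of LOC_Os03g38230 (14.1%), LOC_Os06g49640 (11.8%) and LOC_Os07g48090 (10.4%). LOC_Os03g38230 had 45.5, 60.2 and 51.7 FPKM in 93-11 HS libraries against 48.9, 53.3 and 59.1 FPKM in 93-11 normal libraries, and in Nip it had 76.5, 75.8 and 74.8 FPKM in HS libraries against 57.3, 58.4 and 66.2 FPKM in normal libraries, so that it met the minimum in 93-11 only by its means. LOC_Os06g49640 had 86.9, 69.3 and 74.0 FPKM in 93-11 HS libraries against 85.1, 79.7 and 90.6 FPKM in 93-11 normal libraries, where its HS replicate 1 stood above the other HS libraries and within the normal ones.

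Because FPKM sums changed upon HS, a constant FPKM was not a constant share of the library. The 45 members together held 0.698 ± 0.00572% of the FPKM sum in 93-11 HS libraries, against 0.933 ± 0.00380% in 93-11 normal libraries (SD, n = 3 each). In Nip they held 1.05 ± 0.00574% in HS libraries, against 0.772 ± 0.00873% in normal libraries (SD, n = 3 each). The share was lower upon HS in every 93-11 library and higher upon HS in every Nip library, in the opposite direction to the FPKM sums. The summed FPKM of the members itself was 5614 ± 67.4 in 93-11 HS against 5567 ± 171 in 93-11 normal libraries, and 5828 ± 23.2 in Nip HS against 6105 ± 124 in Nip normal libraries.

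The order of genes, which a single scaling factor per library leaves unchanged within that library, moved in the same way. Ranked by group mean among the 23399 shared identifiers, all 45 members stood higher in the Nip HS order than in the Nip normal order, by a median of 281 places. In 93-11, 41 members stood lower in the HS order, 3 stood higher and 1 kept its place, with a median of 193 places towards lower expression. The members were chosen for a near-constant FPKM, so the main direction of these moves was set by the other genes. Shared identifiers that reached 50 FPKM were fewer upon HS in Nip (1800 against 2495) and more in 93-11 (2247 against 1971). The moves are therefore no separate result about the members. The longest move in Nip was that of LOC_Os03g38230, to place 1022 in Nip HS, against place 1962 in Nip normal. The longest move in 93-11 was that of LOC_Os05g35170, to place 2010 in 93-11 HS, against place 1483 in 93-11 normal. LOC_Os07g48090 held place 474 in both 93-11 HS and 93-11 normal libraries.

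Whether a member counts as unmoved therefore depended on the scale. With values divided by median-ratio size factors, 36 of the 45 met the whole rule, and the median ratio of the 45 was 1.02 in 93-11 and 1.05 in Nip. With quantile normalization 6 of the 45 met it, with a median ratio of 0.824 in 93-11 and 1.42 in Nip. With every library brought to the same FPKM sum of 1000000, 4 of the 45 met it, with a median ratio of 0.736 in 93-11 and 1.39 in Nip, and all 45 ratios were below 1 in 93-11 and above 1 in Nip. The rule and the FPKM sums together set the directions of these 45 ratios in advance. LOC_Os05g33380 met the rule both with quantile normalization and with equal sums, although not with median-ratio factors, and no member met it under all 3 other scalings. The other members kept with quantile normalization were LOC_Os08g02420, LOC_Os05g30350, LOC_Os01g58220, LOC_Os01g73910 and LOC_Os05g01600, and with equal sums LOC_Os06g12580, LOC_Os06g43650 and LOC_Os08g45010.

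**Figure D3:**
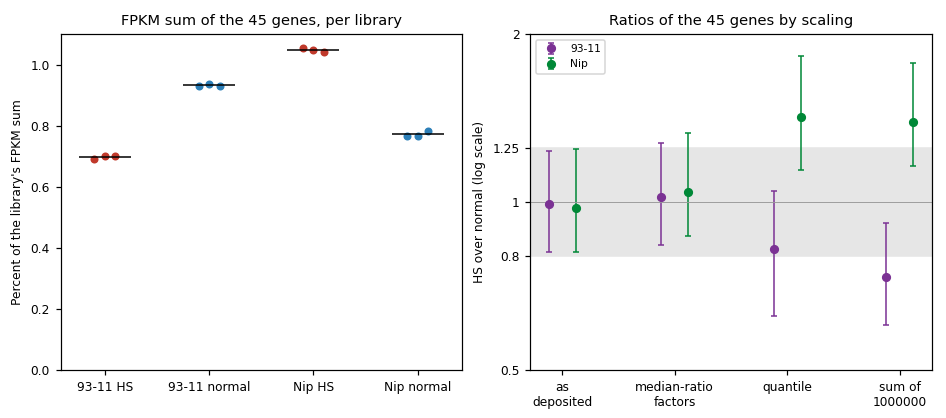
Left, share of each library's FPKM sum held by the 45 members, in percent (points are libraries, bars are group means); right, ratio of HS to normal (log scale) over the 45 members under 4 scalings, where points are medians, whiskers run from the lowest to the highest member and the grey band is the window from 0.8 to 1.25. The share was 0.698% in 93-11 HS against 0.933% in 93-11 normal and 1.05% in Nip HS against 0.772% in Nip normal, and the medians left 1 in opposite directions with quantile normalization (0.824 and 1.42) and equal sums (0.736 and 1.39).

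The rule did not use the difference between cultivars, although its minimum in every group limits how far apart they can be. This difference was tested with limma on log2(FPKM + 1), fitting all 12 libraries together for 19296 identifiers. A gene was called where its p, adjusted by Benjamini-Hochberg, was below 0.01 and its log2 fold change reached a size of 1. In HS libraries 1 of the 45 members was called (2.22%) and was higher in 93-11, beside 43.2% of all identifiers tested, 16.3% with higher values in 93-11, and 302 of the 696 other genes over the minimum (43.4%). In normal libraries 1 member was called again, also higher in 93-11, beside 19.9% of all identifiers tested, 7.02% with higher values in 93-11, and 95 of the 696 other genes (13.6%). In HS libraries the low count is in part fixed by the rule, which bounds how far the difference in HS can stray from that in normal libraries. The share of members past the adjusted p alone was near the background, with 37 of 45 (82.2%) in HS libraries beside 80.1% of those tested, and 34 of 45 (75.6%) in normal libraries beside 69.4%. On the deposited scale, most members thus passed the adjusted p while differing by less than 2-fold. Passing the adjusted p was about as common among all identifiers tested, so it is no result about the members.

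The gene called in both was LOC_Os03g07530. It had 176, 184 and 182 FPKM in 93-11 HS libraries against 67.5, 66.0 and 68.9 FPKM in Nip HS libraries, and 174, 174 and 178 FPKM in 93-11 normal libraries against 70.7, 71.0 and 70.3 FPKM in Nip normal libraries. Its log2 fold change of 93-11 over Nip was 1.41 in HS libraries (standard error 0.031, adjusted p = 1.453e-13, limma) and 1.299 in normal libraries (standard error 0.031, adjusted p = 1.367e-12, limma). It was also among the members with ratios nearest to 1 upon HS, 1.03 in 93-11 and 0.955 in Nip. With quantile normalization its log2 fold change in HS libraries was 0.90 and with equal sums 0.88, both short of the size of 1, while in normal libraries it was past 1 under every alternative tried.

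LOC_Os07g12150 and LOC_Os07g48090 fell just short of the call and are named after their values were seen. LOC_Os07g12150 had 144 ± 4.54 FPKM in 93-11 HS against 72.0 ± 2.76 FPKM in Nip HS libraries, and 128 ± 12.7 FPKM in 93-11 normal against 64.0 ± 1.34 FPKM in Nip normal libraries (SD, n = 3 each), with log2 fold changes of 0.99 in both comparisons. LOC_Os07g48090 had 198 ± 10.0 FPKM in 93-11 HS against 98.7 ± 4.20 FPKM in Nip HS libraries (SD, n = 3 each), with a log2 fold change of 0.99, but 160.3 ± 13.4 FPKM in 93-11 normal against 101 ± 10.5 FPKM in Nip normal libraries (SD, n = 3 each), with one of 0.67. The members furthest below Nip were LOC_Os04g21320 in HS libraries, with a log2 fold change of -0.92, and LOC_Os04g59150 in normal libraries, with one of -0.90. LOC_Os04g21320 had 93.3, 96.9 and 90.4 FPKM in 93-11 HS libraries against 184, 178 and 169.7 FPKM in Nip HS libraries.

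The cultivars did not overlap for 39 members in HS libraries, beside 86.4% of the identifiers tested, and for 36 in normal libraries, beside 79.4%. Without overlap in both conditions, 11 of the 45 members were higher in 93-11 in both, beside 11.5% of the identifiers tested, and 17 were lower in 93-11 in both, beside 34%. Opposite directions were found for 2 members, beside 23.9%, and the rule limits how far the members could differ between the conditions. On the deposited scale, LOC_Os02g10700 and LOC_Os06g12580 were higher in 93-11 in HS libraries and lower in 93-11 in normal libraries. For LOC_Os06g12580 these were 163, 173 and 159.5 FPKM in 93-11 HS against 133, 135 and 137 FPKM in Nip HS libraries, and 135, 131 and 147 FPKM in 93-11 normal against 152, 158 and 157 FPKM in Nip normal libraries.

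Over the 45 members the median log2 fold change of 93-11 over Nip was -0.07 in HS and -0.18 in normal libraries, beside -0.28 in HS and -0.30 in normal libraries over all identifiers tested. For the 696 other genes over the minimum it was 0.35 in HS and -0.29 in normal libraries. The members' signs depended on the scale. In HS libraries the members' median was -0.66 with quantile normalization, -0.60 with equal sums and 0.21 with median-ratio factors, and in normal libraries it was 0.10, 0.23 and 0.15 in the same order. Relative to the deposited values, the median shift of the log2 fold change per identifier, over all identifiers, was 0.24, -0.51 and 0.25 in HS and 0.29, 0.37 and 0.30 in normal libraries. The number of members called in HS libraries was 9 with quantile normalization and 10 with equal sums, all lower in 93-11, and 3 with median-ratio factors, all higher in 93-11, while in normal libraries it ran from 1 to 4, all higher in 93-11. Of all identifiers tested, these scalings called 38.9%, 51.5% and 42.4% in HS libraries, in the same order, and 18.4%, 20.3% and 18.2% in normal libraries. The authors' methods name alignment to each cultivar's own genome, although it is not stated which alignment made the deposited values. A difference in gene models or mapping cannot be told apart from a difference in expression.

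**Figure D4:**
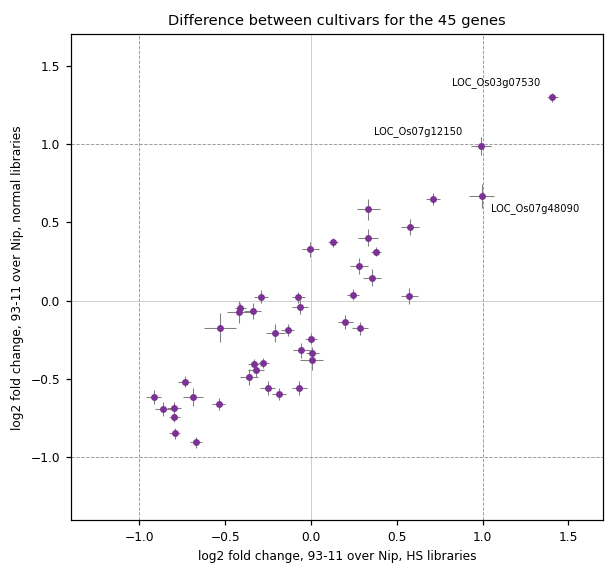
Log2 fold change of 93-11 over Nip in HS libraries (horizontal axis) and in normal libraries (vertical axis) for the 45 members, from limma on log2(FPKM + 1); points are genes, bars are standard errors and dashed lines mark a size of 1. LOC_Os03g07530 lies past 1 on both axes, at 1.41 and 1.299, and the other 44 genes lie within a size of 1 on both.

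The size of the difference between cultivars had a median of 0.33 on the log2 scale in HS libraries for the members, beside 0.86 for the 696 other genes over the minimum and 0.85 for all identifiers tested. In normal libraries these medians were 0.40, 0.48 and 0.52. The ratio rule ties each member's difference in HS libraries to that in normal libraries, so that the members' values in HS, here and in the correlations that follow, are largely fixed by how they were chosen. Across the members, Pearson's r between the log2 group means of 93-11 and Nip was 0.713 in HS and 0.756 in normal libraries (n = 45 genes), and across the 696 other genes it was 0.440 in HS and 0.875 in normal libraries. Genes are not independent replicates, the points of an axis share the same 3 libraries, and the members cover a narrower range of levels than the other genes, so that these correlations are given as a description.

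The identifiers carry the chromosome number. Members lay on 11 of the 12 chromosomes, with 9 of the 129 genes over the minimum on chromosome 3, 8 of 68 on chromosome 6, 5 of 59 on chromosome 4, 5 of 73 on chromosome 5 and none of 30 on chromosome 10. Chromosome 1, with 103 genes over the minimum, held 3 members. Over all chromosomes the share was 45 of 741 (6.07%), and differences between chromosomes were not tested. No count of close pairs was made for other genes, so nothing is read from their number. In the order of identifiers, 4 pairs of members had fewer than 10 listed identifiers between them. These were LOC_Os05g01560 and LOC_Os05g01600 with 3 between them, LOC_Os03g60740 and LOC_Os03g60840 with 5, LOC_Os03g38000 and LOC_Os03g38230 with 7, and LOC_Os07g48090 and LOC_Os07g48244 with 9. Over the 4 groups, LOC_Os07g48090 and LOC_Os07g48244 had close means of 139 and 147 FPKM and LOC_Os05g01560 and LOC_Os05g01600 of 81.2 and 69.1 FPKM. Their patterns over the groups differed. The HS ratio in 93-11 was 1.233 for LOC_Os07g48090 and 0.821 for LOC_Os07g48244. The log2 fold change of 93-11 over Nip in HS libraries was 0.99 and -0.34 for these 2 genes. It was -0.21 for LOC_Os05g01560 and 0.58 for LOC_Os05g01600. The means of LOC_Os03g38000 and LOC_Os03g38230 were further apart, at 143 and 60.6 FPKM, as were those of LOC_Os03g60740 and LOC_Os03g60840, at 92.1 and 271 FPKM. LOC_Os11g02610 carries an identifier near the start of chromosome 11, a stretch that has a near-identical copy on chromosome 12, so that its reads could be split with a copy and its values are uncertain.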

How the data were processed

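The authors extracted RNA from 3 biological replicates per group, built stranded mRNA libraries and sequenced them on the HiSeq X-ten. Their methods name STAR alignment to the genome of each cultivar, featureCounts and DESeq2, whereas the submitters' processing notes list HISAT2 2.0.4, StringTie 1.3.4d and DESeq2; the annotation release is not given in the sources used here. The deposited values are FPKM, made by the authors, with genes in rows and 1 file per library.

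The rule was applied to group means of the deposited FPKM. Differences between cultivars were tested on log2(FPKM + 1) in limma 3.58.1, run in R 4.3.3, whose prior variance followed the mean level; shared LOC_Os identifiers entered if 3 or more libraries had 1 FPKM or more; the pseudocount of 1 slightly understates fold changes. On simulated data the fit recovered 199 of 200 changed genes in normal libraries and 198 in HS libraries, each changed by 2 on the log2 scale, among 19296 genes. The changed genes were drawn from those above a low level. All other genes had equal means in the 4 groups, with no difference in scale between libraries. The simulation therefore does not cover changes near a size of 1 or the choice of scaling. Groups and replicate numbers came from the sample titles. Python 3.11.15 served for summaries and plots.

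Named were the members of highest mean, with ratios nearest to 1, called between cultivars, nearest to the edges and of extreme replicate spread. Other members were named after their values were seen. The members and lists were chosen with earlier results of these data known. Gene lists by function, tissue markers and promoter motifs had been planned but were not used, since 0 rows of the gene table hold a LOC_Os identifier. Alternatives were other minimums, windows, scalings, pseudocounts, filters and thresholds, group medians, a replicate block and replicates left out.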

Additional observations from a re-analysis of the deposited data

Results flagged for a closer look

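The members' share of the FPKM sum was lower upon HS in 93-11 and higher upon HS in Nip. In 93-11 the HS share minus the normal share was -0.235 percentage points, with every HS library below every normal library, and in Nip it was 0.276 percentage points, with every HS library above every normal library. The rule held the members' FPKM near constant, so these directions follow from the FPKM sums of the libraries. They are no separate result about the members, and the difference between the cultivars was not tested.

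For 9 of the 45 members, beside 18.6% of all identifiers tested, the HS and normal libraries stood apart in opposite directions in the 2 cultivars, which was not tested because the rule used these contrasts. For 2 members, LOC_Os02g10700 and LOC_Os06g12580, beside 23.9% of all identifiers tested, the cultivars stood apart in opposite directions in HS and normal libraries. The change between conditions was not tested, because the rule bounds it through the HS ratios. Each cultivar difference was tested with limma. The adjusted p was 0.00091 in HS and 0.0137 in normal libraries for LOC_Os02g10700, the latter not below 0.01. For LOC_Os06g12580 the limma values were 4.6e-05 in HS and 0.0026 in normal libraries. The log2 fold changes of LOC_Os02g10700 were 0.20 in HS and -0.13 in normal libraries. Those of LOC_Os06g12580 were 0.29 and -0.18. Equal sums shifted the log2 fold change per identifier by a median of -0.51 in HS libraries, and median-ratio factors by 0.30 in normal libraries. Both shifts are larger in size than these differences, so the directions are given for the deposited scale only.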

How the results depend on the processing

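The number of genes that met the rule was 45 as reported, 115 with a minimum of 30 FPKM and 15 with one of 100, and 7 with a window from 0.9 to 1.11 and 143 with one from 0.667 to 1.5. By scaling it was 140 with values rescaled to sum to 1000000, 61 with quantile normalization and 53 with median-ratio factors. Of these, 4, 6 and 36 were among the 45, in the same order. Without each replicate number in turn it was 40 to 49.
The median ratio of the members upon HS was 0.824 in 93-11 and 1.42 in Nip with quantile normalization, 0.736 and 1.39 with equal sums, and 1.02 and 1.05 with median-ratio factors, against 0.992 and 0.979 as reported. Without each replicate number it was 0.979 to 1.03 in 93-11 and 0.957 to 0.979 in Nip.
The members called between cultivars in HS libraries were 1 as reported, 2 with a pseudocount of 0.1, 9 with quantile normalization, 3 with median-ratio factors and 10 with equal sums, and 1 to 2 without each replicate, where the identifiers called in all were 8344, 10111, 7548, 8166 and 10352, and 7986 to 8038. In normal libraries they were 1 as reported, 2 with quantile normalization, 2 with median-ratio factors and 4 with equal sums, and 1 to 2 without each replicate, where the identifiers called in all were 3844, 3562, 3506 and 4082, and 3633 to 3698. Apart from the scalings themselves, the cause of these moves was not tested. Beside LOC_Os03g07530, LOC_Os07g12150 was called without replicate 1 in normal libraries (log2 fold change 1.03) and without replicate 2 in HS (1.03) and normal libraries (1.01), and LOC_Os07g48090 without replicate 3 in HS libraries (1.06).
With a replicate block the calls were unchanged in number, at 1 member in each comparison and 8344 identifiers in HS and 3844 in normal libraries. Same-numbered libraries of the cultivars did not deviate together (correlations of -0.043 to 0.034), so no shared effect of the replicate number was seen. This cannot show whether such libraries were grown or prepared together. HS and normal libraries of a cultivar were not compared in this way. No depth is known for these FPKM values, so counting error is not covered.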
